A study of Mus musculus with 8 samples.

Results

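In the ascending aorta of mice with a Marfan syndrome allele, the genes that were lower after DT-061 treatment were mostly high in the vehicle libraries that carried many immune-cell transcripts. The 45 genes described here were the exceptions: they were lower after treatment, and the vehicle library with the fewest immune-cell transcripts, Vehicle 4, held at least as much of their RNA as the mean of the other vehicle libraries. They included 12 genes of mitosis and cell division (Ccnb1, Ccnb2, Ndc80, Spc25, Kif2c and others), genes that make sugar precursors and secreted proteins, genes of protein and RNA handling, and a set of membrane and signalling genes. They were chosen from the 1329 genes of the deposited table by 5 conditions: annotated as protein coding in GENCODE M21, a mean of at least 1 FPKM (fragments per kilobase of gene, scaled to the mapped fragments of the library) over the 8 libraries, the highest DT-061 value below the lowest vehicle value, a Vehicle 4 value at least equal to the mean of Vehicle 1 to 3, and absence from a list of 14 named genes and from the solute carriers (Slc genes). Of the 450 protein-coding genes at or above that mean whose groups did not overlap with DT-061 lower, 52 (11.6%) met the Vehicle 4 condition and 398 did not. The named exclusions removed 7 of the 52: Cdc20, Sfrp4, Cd55, Cenpa, Slc43a1, Slc25a15 and Slc41a2.

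All 8 libraries came from the ascending aorta of Fbn1mgR/mgR mice, which underexpress fibrillin-1, the microfibril protein mutated in Marfan syndrome. Mice in the DT-061 group (n = 4) received 5 mg/kg of DT-061, a small-molecule activator of the phosphatase PP2A, by mouth 2 times daily, beginning when they were 5 weeks old and continuing for 4 weeks. Mice in the Vehicle group (n = 4) received, on the same schedule, the carrier solution of N,N-dimethylacetamide, Kolliphor HS-15 and water. Aortas with normal Fbn1 were not analysed here. Each comparison is thus between aortas of mice given DT-061 and of mice given the carrier, all with the mgR allele. The labels do not say whether each library is a separate mouse. Every value chosen by the rule comes from the same comparison of DT-061 with vehicle, so the differences below describe the genes, and the limma calls printed for them support nothing.

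The tissue label holds for smooth muscle, whose contractile genes Acta2 (3458 to 9006 FPKM) and Myh11 (504 to 1356 FPKM) were high in all 8 libraries. The libraries differed in cell content. In the vehicle libraries, the summed FPKM of the T and NK cell markers (9 of the 12 listed were in the table) was 79.3, 25.8, 34.3 and 6.24 in Vehicle 1 to 4, and it ranged from 2.34 to 8.44 after DT-061. The sum of 6 of 12 B and plasma cell markers was 5639, 1284, 2292 and 244 in Vehicle 1 to 4 and 73.8 to 142 after DT-061, and that of 4 of 12 monocyte and macrophage markers was 376, 239, 208 and 83.4 against 14.0 to 72.7. Vehicle 4 was therefore the vehicle library nearest to the DT-061 libraries in immune-cell transcripts. Plasma cell genes were still higher there: Igkc was at 68.0 FPKM against 4.05 to 25.5 after DT-061, and Igha at 42.7 against 2.80 to 16.7. The sum of 8 of 12 smooth muscle markers was 12620 in Vehicle 4. This was within the 8793 to 13945 of the other vehicle libraries and below the 16138 to 24417 of the DT-061 libraries. DT-061 library 3 stood apart on the other side, with the highest smooth muscle sum and the lowest T and NK, B and plasma, and monocyte and macrophage sums of the 8. None of the 45 genes is on the 14 marker lists, but the rule sets much of this and nothing is read from it. It takes lowered genes only, whereas all 8 smooth muscle markers in the table were higher after DT-061. The Vehicle 4 condition also selects against genes that follow immune-cell transcripts. The part of the shifts in cell content in the results below was not tested. In bulk tissue, fewer cells of a type and less RNA per cell cannot be told apart. The lists for endothelium, Schwann cells, cardiac and skeletal muscle, and erythroid cells matched 0 genes of the table, so the level of these cell types was not analysed here.

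Progression through mitosis depends on cyclin B with its kinase partner, on kinetochore proteins that tie chromosomes to the spindle, and on kinesin motors that build and move the spindle. Most of these genes are silent in resting cells, and smooth muscle cells of an adult artery divide rarely. Their transcription is timed by repressor and activator complexes that bind a short element near the start site, the cell cycle genes homology region (CHR), and by the factor NF-Y, which binds CCAAT boxes; several CCAAT boxes at a regular spacing next to a CHR are a known arrangement in G2 and M phase genes.

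Promoter windows from 250 bases before to 50 bases after the annotated start were taken from RefSeq (GRCm38.p6) and matched by symbol; 38 of the 45 genes had one, with 50 windows in all. The windows were searched on both strands for TTTGAA (the CHR), CCAAT, and CACGTG (the E-box, bound by MYC and CLOCK family factors). The sequences below are examples chosen by name. The mitosis genes do not all share both motifs: Ccnb1 and Nek2 held no CHR match, and Dbf4, Kif2c and Ndc80 held no CCAAT box. The mitosis genes were grouped by function and these motifs are known in such genes, so nothing about DT-061 is read from them. Each sequence runs 5′ to 3′ along the gene's own strand from 250 bases before the start to 30 bases after. The capitals mark TTTGAA or its reverse complement TTCAAA and CCAAT or its reverse complement ATTGG. Ccnb2 (chr9:70421525-70421804, minus strand), which encodes a B-type cyclin, held 3 CCAAT boxes 33 bases apart and 2 CHR matches. Cdca8 (chr4:124936888-124937167, minus strand), a subunit of the chromosomal passenger complex, held 4 CCAAT boxes and 1 CHR match, and the CHR match shares 1 base with a CCAAT box. Spc25 (chr2:69206184-69206463, minus strand), a subunit of the NDC80 kinetochore complex, held 2 CCAAT boxes 32 bases apart and 1 CHR match. Kif22 (chr7:127042391-127042670, minus strand), a kinesin that pushes chromosome arms, held 2 of each. Ccnb1 (chr13:100786457-100786736, minus strand), the other B-type cyclin, held 2 CCAAT boxes 32 bases apart and no TTTGAA in the window. Kpna2 (chr11:106999496-106999775, minus strand), a nuclear import receptor outside the mitosis group, held 2 CCAAT boxes 31 bases apart and 1 CHR match.
Ccnb2: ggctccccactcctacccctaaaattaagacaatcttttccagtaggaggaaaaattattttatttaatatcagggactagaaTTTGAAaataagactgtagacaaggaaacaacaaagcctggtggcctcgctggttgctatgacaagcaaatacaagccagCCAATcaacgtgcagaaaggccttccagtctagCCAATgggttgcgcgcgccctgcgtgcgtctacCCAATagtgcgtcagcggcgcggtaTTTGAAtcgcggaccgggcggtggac
Cdca8: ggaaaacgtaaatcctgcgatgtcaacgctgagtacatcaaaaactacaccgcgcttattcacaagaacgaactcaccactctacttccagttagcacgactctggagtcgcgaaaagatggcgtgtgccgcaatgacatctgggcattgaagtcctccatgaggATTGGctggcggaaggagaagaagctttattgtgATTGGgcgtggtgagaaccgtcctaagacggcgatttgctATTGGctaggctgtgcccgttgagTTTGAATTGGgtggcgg
Spc25: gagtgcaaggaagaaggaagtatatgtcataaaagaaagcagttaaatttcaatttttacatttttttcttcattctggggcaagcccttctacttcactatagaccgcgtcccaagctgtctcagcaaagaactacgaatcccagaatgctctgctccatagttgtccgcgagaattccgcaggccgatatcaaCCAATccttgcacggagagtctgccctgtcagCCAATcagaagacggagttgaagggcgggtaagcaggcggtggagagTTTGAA
Kif22: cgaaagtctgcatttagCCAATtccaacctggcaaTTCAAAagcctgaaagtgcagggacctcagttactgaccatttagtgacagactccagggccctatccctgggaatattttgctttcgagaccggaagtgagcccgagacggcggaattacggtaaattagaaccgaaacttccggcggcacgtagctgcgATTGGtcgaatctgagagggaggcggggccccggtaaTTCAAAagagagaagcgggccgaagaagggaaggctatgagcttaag
Ccnb1: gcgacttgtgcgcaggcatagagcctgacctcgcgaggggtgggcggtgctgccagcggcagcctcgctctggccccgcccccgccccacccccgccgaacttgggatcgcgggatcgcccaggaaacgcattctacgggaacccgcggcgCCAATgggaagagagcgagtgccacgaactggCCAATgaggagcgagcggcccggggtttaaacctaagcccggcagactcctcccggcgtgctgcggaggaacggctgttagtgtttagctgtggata
Kpna2: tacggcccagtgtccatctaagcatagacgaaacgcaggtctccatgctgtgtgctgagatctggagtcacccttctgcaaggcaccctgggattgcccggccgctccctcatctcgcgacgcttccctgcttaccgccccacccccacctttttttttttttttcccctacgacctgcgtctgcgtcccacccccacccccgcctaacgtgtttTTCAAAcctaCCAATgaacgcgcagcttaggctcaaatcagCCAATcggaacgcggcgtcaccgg

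Over the 11 mitosis genes with a window, 9 (81.8%) held a CHR match, against 9 of the 39 windows (23.1%) of the other chosen genes, 13.5% of the 401 windows found for 312 of the 398 lowered genes with Vehicle 4 below the mean of the other vehicle libraries, and 17.9% of all 32851 windows. Windows with at least 2 CCAAT boxes made up 63.6% of the mitosis genes' windows, 15.4% of the other chosen genes', 9.98% of those 401 windows and 11.7% of all windows. A CHR match together with 2 or more CCAAT boxes was present in 5 of 11 mitosis windows (45.5%: Ccnb2, Cdca8, Ckap2l, Kif22 and Spc25) and in 2.09% of all windows. Each of the 11 windows held a CHR match or a CCAAT box, as did 48.3% of all windows. The E-box was found in none of the 11 mitosis windows and in 7 of the 39 others (17.9%), which belong to 6 genes (Aen, Atg3, Fkbp11, Ppa1, Ran and Tor1aip2). Of all windows, 7.15% held one. At that share few or none are awaited in 11 windows, so no difference is read from these E-box counts. A match is a description of the letters and no evidence of binding, and these motifs are not particular to the 45. The cell cycle list of 77 genes is described below. Of the 12 windows of its genes in the table but outside the 45, 75.0% held a CHR match. In 66.7% of these 12 windows a CHR match stood together with 2 or more CCAAT boxes, above the 45.5% of the mitosis genes. The share with 2 or more CCAAT boxes was 66.7% as well. Of the 49 windows of list genes outside the table, 34.7% held a CHR match, 36.7% held 2 or more CCAAT boxes and 16.3% held both. No window was at hand for Bhlhe40, Crabp2, Kif20a, Nudcd1, Syt12, Tmem100 and Txnl1.

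**Figure D1:**
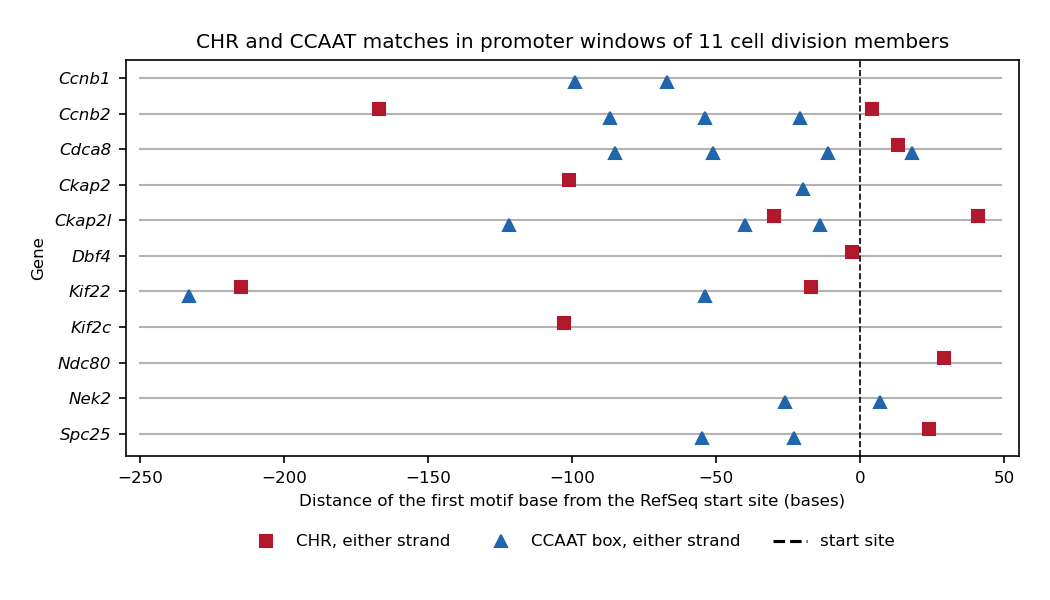
Promoter windows of the 11 mitosis genes with a RefSeq window, 1 row per gene; the x axis is the distance of the motif's first base from the start site in bases, red squares are CHR matches and blue triangles CCAAT boxes, on either strand. A CHR match was present in 9 of the 11 windows, and Ccnb1 and Nek2 held 2 CCAAT boxes and no CHR match.

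All 45 genes were lower after DT-061 in limma's test across the table, at an adjusted p under 0.05; 65% of all 1329 genes were called lower by it (864, with 404, or 30.4%, higher), and 48.2% had groups that did not overlap with DT-061 lower. Because the rule used this contrast, nothing is read from that count. The fold difference (mean vehicle FPKM over mean DT-061 FPKM) ran from 1.26 for Ran to 5.00 for Vat1l, with a median of 2.08, and 23 genes were at least 2 times higher in vehicle. On the log2(FPKM + 1) scale the median change was -0.69, beside -0.58 over all 1329 genes. For the 398 lowered genes in which Vehicle 4 was below the mean of the other vehicle libraries, the median fold difference was 2.34. Levels were low: 26 of the 45 genes had a mean under 5 FPKM, and the range of means was 1.05 to 75.6 FPKM. The scale matters for direction, since the table holds mainly genes that differ. Rescaling each library to a common median moved the log2 changes of the table by a median of 0.68. It left 26 of the 45 genes lower, with 19 higher after DT-061. Quantile normalization, which moved the changes by 0.56, turned 20 higher. None of the genes that turned higher was past limma's threshold, and of those that stayed lower 1 and 5 were. With a scaling, lower and higher below thus give the sign of the estimate, not a call. With those scalings the split of calls in the whole table changed from 864 lower and 404 higher to 301 and 434, and to 209 and 394.

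**Figure D2:**
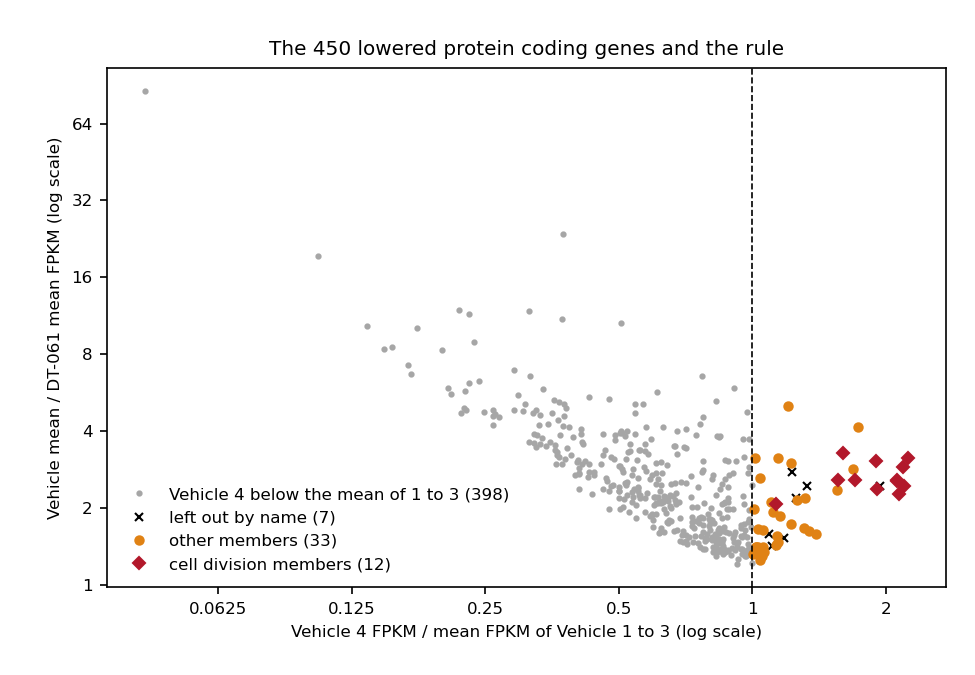
The 450 protein-coding genes at a mean of at least 1 FPKM that were lower after DT-061 without overlap, 1 point per gene on log axes; the x axis is Vehicle 4 FPKM over the mean of Vehicle 1 to 3, the y axis the mean vehicle over the mean DT-061 FPKM as deposited. The mitosis genes (red diamonds) have a median ratio of 2.01 on the x axis, with Dbf4 apart at 1.13, the other 33 genes (orange) have a median of 1.11, the 398 with Vehicle 4 below (grey) a median of 0.633, and crosses mark the 7 genes left out by name.

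The rule has 3 thresholds. Just inside the mean of 1 FPKM were Kif2c (1.05) and Ndc80 (1.14), and just outside were Nkain1 (0.940) and Bdkrb1 (0.844). Just inside the Vehicle 4 condition were Txnl1, with 22.7 FPKM in Vehicle 4 and a mean of 22.6 in the other vehicle libraries, and Ppa1, with 41.3 and 41.0; just outside were Ddi2, whose Vehicle 4 value was 0.999 times that mean, and Mapk11, with 4.82 and 4.83. Just inside the condition on overlap was Ckap2, with 1.72 as the highest DT-061 value and 1.73 as the lowest vehicle value, and just outside was Cdca3, with 1.75 and 1.66. Cdca3, a trigger of mitotic entry, and the spindle motor Kif11 (0.876 and 0.776) thus stand outside by a small margin.

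As deposited, FPKM of the 12 mitosis genes was higher in vehicle by a median of 2.58 times (2.08 to 3.29). All 12 estimates stayed lower after DT-061 with median rescaling, while quantile normalization turned 10 of them higher and left Ccnb2 and Spc25 lower. None of the 12 was past the threshold with either scaling. Their summed FPKM was 12.2, 14.3, 7.92 and 10.2 in DT-061 libraries 1 to 4 and 30.5, 16.9, 23.2 and 44.5 in Vehicle 1 to 4. Vehicle 4, the library with the fewest immune-cell transcripts of its group, was the highest, and Vehicle 2 was the lowest vehicle library for all 12 genes. The rule asked for Vehicle 4 at or above the mean of the other vehicle libraries, so its place is no finding; the place of Vehicle 2 was not set by it. The smallest whole fragment numbers that give these FPKM values were 8 to 70 per DT-061 library and 39 to 190 per vehicle library over the 12 genes. They are minimum values: more than 1 gene length gave whole numbers for 10 of the 12, and for 23 of the 34 genes of the 45 with recovered fragments. A much longer length gives more fragments, while neighbouring lengths can give the same numbers. These cases were not told apart.

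**Figure D3:**
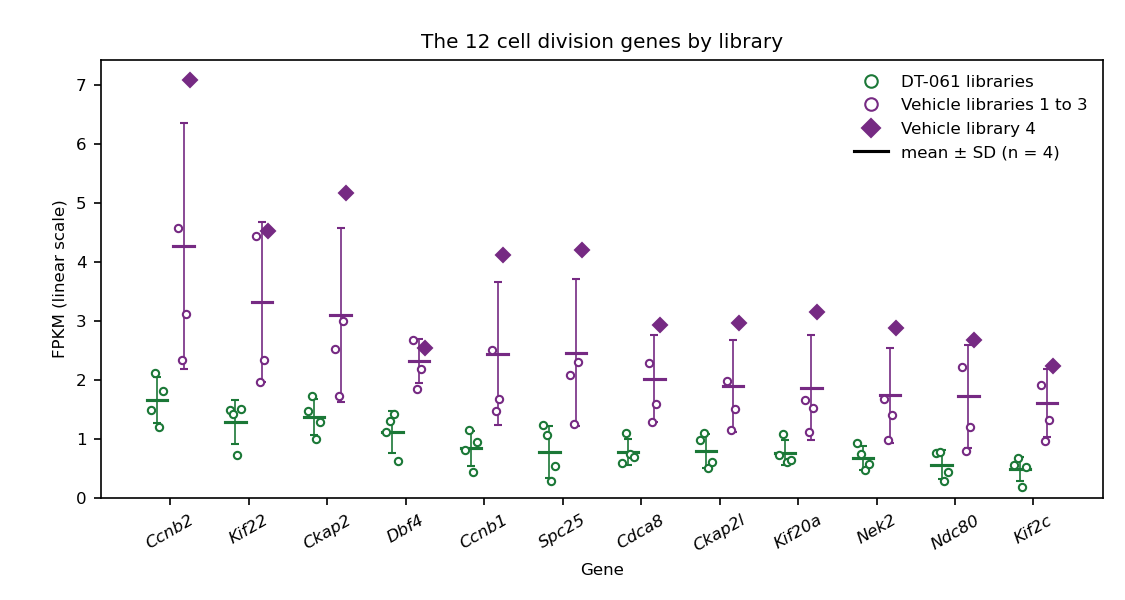
FPKM as deposited of the 12 mitosis genes, 1 point per library, with DT-061 libraries, Vehicle 1 to 3 and Vehicle 4 marked apart, a short line at each group mean, error bars of 1 SD (n = 4) and a linear y axis. Vehicle 4 is the highest point for 11 of the 12 genes, and Vehicle 1 is for Dbf4. With quantile normalization 10 of the 12 estimates turned higher after DT-061, none past the threshold.

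Gene positions are those of GENCODE M21 on mm10. Among the cyclins, Ccnb1 (chr13:100778650-100786570), which activates the mitotic kinase CDK1, stood at 0.811, 1.16, 0.443 and 0.955 FPKM in DT-061 libraries 1 to 4 and at 2.51, 1.47, 1.68 and 4.13 in Vehicle 1 to 4. The means were 0.842 ± 0.301 and 2.44 ± 1.21 (SD, n = 4 in each group, DT-061 before vehicle, as for every pair of means below), a 2.90-fold difference, and Vehicle 2 was the closest to the DT-061 libraries. About 14.9% of the 100-base words in Ccnb1 transcripts also occur in other genes, most in the pseudogene Ccnb1-ps, so its level is uncertain where reads could be assigned to either. Ccnb2 (chr9:70407692-70421547), its close relative, was at 1.49, 2.12, 1.21 and 1.81 after DT-061 and 4.57, 2.34, 3.12 and 7.08 in vehicle, 2.58 times higher in vehicle. In both cyclins Vehicle 4 was the highest of the 8 libraries, at 2.19 and 2.12 times the mean of the other vehicle libraries.

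The kinetochore and spindle genes also were highest in Vehicle 4. Ndc80 and Spc25 encode 2 of the subunits of the complex that binds microtubules at the outer kinetochore. Ndc80 (chr17:71496100-71526857) was at 0.759, 0.785, 0.282 and 0.432 FPKM after DT-061 and 2.22, 0.798, 1.20 and 2.67 in vehicle, and Spc25 (chr2:69193895-69206194) at 1.23, 1.06, 0.295 and 0.545 after DT-061 and 2.08, 1.25, 2.30 and 4.21 in vehicle. For Spc25 the smallest fragment numbers that give these values were 33, 31, 8 and 15 after DT-061 and 63, 52, 75 and 111 in vehicle. Kif2c (chr4:117159639-117182639), a kinesin that removes tubulin from microtubule ends to correct wrong attachments, showed the largest fold difference of the 12, 3.29, with 0.563, 0.675, 0.194 and 0.526 FPKM after DT-061 and 1.91, 0.967, 1.33 and 2.24 in vehicle. For these 3 genes DT-061 library 3 was the lowest library and Vehicle 4 the highest, and the groups came closest between Vehicle 2 and DT-061 library 1 or 2. Kif22 was at 1.49, 1.43, 0.735 and 1.51 after DT-061 and 4.43, 1.97, 2.33 and 4.53 in vehicle. Kif20a, a motor of the late spindle needed to divide the cytoplasm, had means of 0.766 ± 0.211 and 1.87 ± 0.890. Of its exonic length, 29.3% overlaps Cdc23 on the opposite strand, and no source used here says whether counting used strand.

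The other mitosis genes act on the spindle, its poles or the start of replication. Cdca8, a subunit of the complex that carries Aurora B kinase, was at 0.601, 1.10, 0.739 and 0.688 FPKM after DT-061 and 2.28, 1.29, 1.58 and 2.93 in vehicle. Nek2, a kinase that separates centrosomes, had means of 0.680 ± 0.203 and 1.74 ± 0.810. The spindle-associated proteins Ckap2 and Ckap2l had means of 1.37 ± 0.302 and 3.10 ± 1.47, and of 0.797 ± 0.287 and 1.90 ± 0.783. Dbf4, which activates the kinase CDC7 at replication origins, is the member of the group that acts in S phase, and it differed in its order: 1.11, 1.3003, 1.43 and 0.623 after DT-061 and 2.68, 1.85, 2.19 and 2.54 in vehicle, with Vehicle 1 the highest and DT-061 library 4 the lowest. It was also the only 1 of the 12 with a Vehicle 4 value less than 1.5 times the mean of the other vehicle libraries (1.13 times). The spread between vehicle libraries was wide for this group, with a median coefficient of variation of 47.0%, against 13.8% for the other 33 genes. Between the DT-061 libraries it was 30.8% against 13.8%.

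The wider cell cycle list gives the setting. Of its 77 genes, 17 were in the table and all 17 fell in limma's test on the deposited scale, beside 65% of the whole table, with a median log2 change of -0.86 beside -0.58; 6 are among the 45, chosen by the rule for being lower. With median rescaling 1 of the 17 was called lower and 1 turned higher (Hmgb2), and with quantile normalization 0 were called and 9 turned higher, 4 of them among the 45. Of the other 11, Vehicle 4 was above the mean of the other vehicle libraries in 8 and the highest of the 8 libraries in 4 (Ube2c, Cdc20, Cenpf and Ccna2), Vehicle 2 was the lowest vehicle library in 10, and the groups overlapped in 6. In E2f2, Cdkn2a and Hmgb2, Vehicle 4 was below that mean.

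2 genes serve nuclear transport, and both were lower after DT-061 as deposited. With quantile normalization both estimates stayed lower, that of Ran alone past the threshold. With median rescaling both turned higher, neither past it. Kpna2 (chr11:106988629-106999541), an importin alpha that carries proteins with a nuclear localisation signal and is itself expressed with the cell cycle, was at 10.1, 12.1, 11.6 and 11.05 FPKM after DT-061 and 17.2, 14.8, 18.6 and 22.6 in vehicle. The DT-061 libraries lay close together, Vehicle 2 was the lowest and Vehicle 4 the highest vehicle library as for the mitosis genes, and the fold difference was 1.63. Of its 100-base words, 56.8% occur in other genes, most in the predicted gene Gm10184, so the value is uncertain. Ran (chr5:129020069-129024323), the GTPase that sets the direction of nuclear transport and helps assemble the spindle, was at 40.4, 39.4, 39.3 and 39.4 after DT-061 and 54.0, 46.5, 47.4 and 51.4 in vehicle. It was among the most evenly measured of the 45: the DT-061 mean was 39.6 ± 0.515 and the vehicle mean 49.8 ± 3.49, a 1.26-fold difference, the smallest of all.

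The secretory and sugar group held 5 genes. They were 1.34 to 1.68 times higher in vehicle as deposited. With median rescaling all 5 estimates turned higher after DT-061. With quantile normalization that of Pign did, and none that turned was past the threshold. Uap1 (chr1:170141938-170174957), which makes UDP-N-acetylglucosamine for glycoproteins and hyaluronan, was at 30.7, 32.0, 19.3 and 32.7 FPKM after DT-061 and 44.9, 45.6, 43.3 and 58.4 in vehicle. DT-061 library 3 was low and Vehicle 4 high, and the remaining libraries of each group lay close together. Ugdh, which makes UDP-glucuronate, the other sugar of hyaluronan and of chondroitin and heparan sulfate chains, was at 24.3, 25.9, 18.8 and 24.5 after DT-061 and 28.8, 33.3, 39.4 and 47.2 in vehicle, with Vehicle 4 again the highest and DT-061 library 3 the lowest. These are 2 of the 3 genes of a 65-gene glycosylation and sugar nucleotide list that are in the table. All 3 fell in limma's test on the deposited scale, beside 65% of the table, but these 2 were chosen for being lower, and 0 were called with median rescaling and 1 with quantile normalization.

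Fkbp11, a prolyl isomerase of the endoplasmic reticulum found mainly in secretory cells, was at 8.95, 9.54, 6.69 and 7.06 FPKM after DT-061 and 15.6, 13.7, 10.6 and 13.7 in vehicle, where Vehicle 1, not Vehicle 4, was the highest. It is the only 1 of the 8 genes in the table from a 56-gene endoplasmic reticulum list that is among the 45, and all 8 fell in limma's test on the deposited scale, beside 65% of the table. With median rescaling 7 of the 8 turned higher, Fkbp11 among them, and 0 were called; with quantile normalization all 8 stayed lower and 4 were called. Pign, which adds ethanolamine phosphate to glycosylphosphatidylinositol anchors, had means of 2.13 ± 0.190 and 3.01 ± 0.324. Tor1aip2, which activates torsin ATPases in the endoplasmic reticulum, had means of 14.1 ± 0.355 and 19.0 ± 1.90, and its DT-061 libraries lay between 13.7 and 14.6 FPKM.

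**Figure D4:**
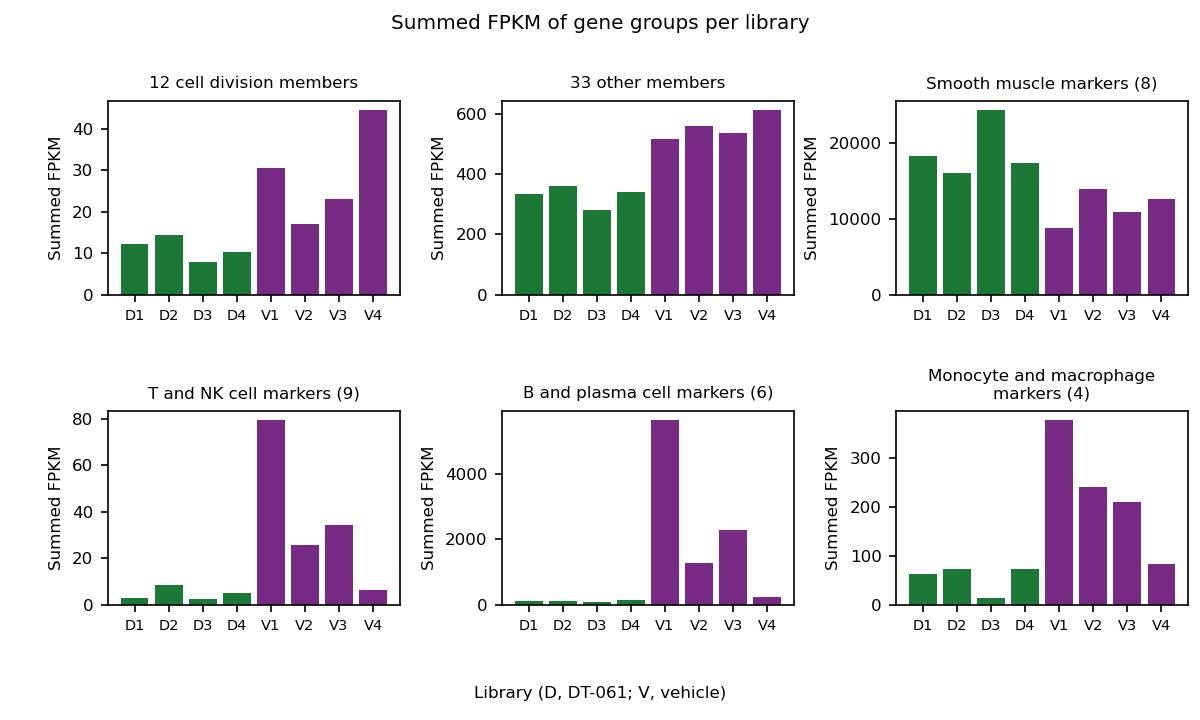
Summed FPKM as deposited per library (D1 to D4, DT-061; V1 to V4, vehicle) in 6 panels, bars from 0: the 12 mitosis genes, the other 33 genes, and 4 sets of cell type markers. The mitosis sum is highest in V4 (44.5) and lowest in D3 (7.92), the sum of the 33 is 282 to 359 after DT-061 and 517 to 612 in vehicle, and the immune marker sums are low in V4 beside V1 to V3.

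Of the 5 metabolism and redox genes, Ppa1 kept a lower estimate after DT-061 under each scaling. It was past the threshold with quantile normalization but not with median rescaling (log2 change of -0.14). Hk2, Ndufaf4, Steap3 and Txnl1 were lower as deposited. Their estimates turned higher with median rescaling, that of Ndufaf4 also with quantile normalization, none past the threshold. Ppa1 (chr10:61648552-61674168), the cytosolic pyrophosphatase that clears pyrophosphate released by biosynthesis, was at 24.8, 19.0, 14.7 and 24.1 FPKM after DT-061 and 33.5, 36.0, 53.5 and 41.3 in vehicle, 1.99 times higher. Its highest library was Vehicle 3, and DT-061 library 3 was the lowest. Hk2, the inducible hexokinase of glycolysis, was at 7.92, 8.01, 9.05 and 9.50 after DT-061 and 13.8, 11.7, 10.3 and 13.5 in vehicle. It was the only 1 of the 45 on the 36-gene glycolysis and hypoxia list, of which 6 genes were in the table, 4 lower, 1 higher and 1 not past the threshold on the deposited scale, beside 65% and 30.4% of the table; median rescaling left 0 of them called lower and quantile normalization 1. Steap3, an endosomal iron reductase, had means of 10.8 ± 1.22 and 16.9 ± 1.44, Ndufaf4, an assembly factor of mitochondrial complex I, 3.67 ± 0.507 and 5.00 ± 0.201, and Txnl1, a thioredoxin-like protein bound to the proteasome, 17.1 ± 1.01 and 22.6 ± 1.25. For Hk2, Steap3 and Ndufaf4 DT-061 library 3 was not uniformly low: it was the lowest of its group in Steap3 only.

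The genes of protein and RNA handling had the most even vehicle libraries of the groups. The 5 genes were 1.298 to 1.65 times higher in vehicle, with a median coefficient of variation of 6.70% between vehicle libraries. With median rescaling all 5 estimates turned higher after DT-061. With quantile normalization those of Eef1e1, Nudcd1 and Rcl1 did, and none that turned was past the threshold. Atg3 (chr16:45158785-45188538), the enzyme that joins LC3 to lipid in autophagy, was at 25.1, 25.1, 22.6 and 26.2 FPKM after DT-061 and 32.4, 30.3, 32.4 and 33.4 in vehicle. The vehicle libraries thus lay close together and well above the DT-061 libraries, which were as even. Eef1e1, a scaffold of the multi-tRNA synthetase complex, had means of 6.44 ± 0.800 and 9.45 ± 0.873, and Rcl1, a factor of pre-ribosomal RNA processing, 6.29 ± 0.397 and 8.88 ± 0.868. The NudC domain proteins Nudcd1 and Nudcd2, the latter a co-chaperone of HSP90, had means of 2.09 ± 0.277 and 3.44 ± 0.231, and of 8.70 ± 1.07 and 12.2 ± 0.394.

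3 genes act in cell death, and they were lower after DT-061 as deposited. With either scaling their estimates turned higher, none of them past the threshold. Pidd1, which assembles the PIDDosome that activates caspase-2 when centrosomes are in excess, was at 0.960, 0.761, 1.19 and 0.863 FPKM after DT-061 and 2.004, 1.40, 1.25 and 1.90 in vehicle, with the lowest vehicle library close to the highest DT-061 library. Aen, a nuclease induced by p53, was at 5.22, 6.43, 5.73 and 5.82 after DT-061 and 8.80, 7.13, 7.22 and 7.84 in vehicle. Bri3bp, a membrane protein tied to drug-induced cell death, was at 1.99, 2.21, 2.31 and 2.39 after DT-061 and 3.10, 3.20, 2.97 and 3.27 in vehicle. DT-061 library 3 was the lowest of its group in none of the 3.

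4 genes encode surface proteins with roles in immunity, and all 4 were lower after DT-061 as deposited. Their estimates stayed lower with either scaling, but only Ly6c1 with quantile normalization was past the threshold. Cd80 (chr16:38455561-38496335), the costimulatory ligand of CD28 on antigen-presenting cells, was at 0.860, 1.69, 0.243 and 1.40 FPKM after DT-061 and 3.92, 2.86, 3.10 and 3.33 in vehicle. The smallest fragment numbers were 21, 45, 6 and 35, and 108, 108, 92 and 80. Ackr2, a decoy receptor that clears inflammatory chemokines, was at 1.18, 1.31, 0.643 and 1.51 after DT-061 and 3.55, 2.75, 4.26 and 4.02 in vehicle. Both were lowest in DT-061 library 3, which had the lowest immune marker sums of all; the part of that in the result was not tested.

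Ly6c1 (chr15:75044018-75048830), a GPI-anchored antigen of endothelium and of some leukocytes, was the most abundant of the 45, at 48.4, 60.9, 36.8 and 48.5 FPKM after DT-061 and 90.5, 118, 91.1 and 110.3 in vehicle. Of its 100-base words 10.1% occur in other genes, most in the neighbouring paralog Ly6c2, a monocyte antigen, so part of the level could be Ly6c2, which was not tested. Ly6c2 itself was at 0.0239 to 0.304 FPKM after DT-061 and at 15.8, 2.72, 2.26 and 0.291 in Vehicle 1 to 4, far below Ly6c1 in each library. Il15ra (chr2:11705290-11734317), the chain that presents interleukin-15 to neighbouring cells, was at 4.51, 4.09, 4.35 and 4.84 after DT-061 and 6.57, 8.45, 10.1 and 9.30 in vehicle. Its DT-061 libraries differed little, with a mean of 4.45 ± 0.315, against 8.61 ± 1.52 in vehicle. Vehicle 1, the library with the most immune-cell transcripts, was the lowest vehicle library for Il15ra and, close to Vehicle 3, for Ly6c1. For Cd80 it was the highest (3.92), and for Ackr2 it was neither. The Vehicle 4 condition selects against genes that are high in Vehicle 1, so nothing is read from this order.

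The 7 other membrane and signalling genes were each lowest in DT-061 library 3. They were 1.85 to 5.00 times higher in vehicle. Their estimates stayed lower after DT-061 with either scaling, except for Cadm3 and Neurl1b, which quantile normalization turned higher. None of the 7 was past the threshold with quantile normalization. Vat1l (chr8:114205612-114374071), a relative of the synaptic vesicle protein VAT-1, had the largest fold difference of the 45. It was at 1.05, 0.422, 0.0487 and 0.993 FPKM after DT-061 and 3.33, 1.69, 3.95 and 3.60 in vehicle, from at least 64, 28, 3 and 62 fragments against at least 229, 159, 293 and 216. DT-061 library 3 thus was far below the other DT-061 libraries, while the lowest vehicle library, Vehicle 2, was above all of them. It was the only 1 of the 45 past the limma threshold with median rescaling.

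Tmem100 (chr11:90030348-90036508), an endothelial membrane protein induced by BMP signalling, was at 8.87, 11.2, 3.35 and 10.4 FPKM after DT-061 and 15.0, 21.0, 15.3 and 21.5 in vehicle. Sema6b, a transmembrane semaphorin, was at 2.08, 2.10, 0.931 and 2.76 after DT-061 and 5.41, 4.60, 5.33 and 5.32 in vehicle, and Syt12, a synaptotagmin that does not bind calcium, at 1.83, 1.59, 0.519 and 1.38 after DT-061 and 3.19, 3.22, 3.26 and 5.44 in vehicle. Sema6b had even vehicle libraries, whereas in Syt12 Vehicle 4 stood above the others. Lhfpl2, a tetraspan membrane protein, had means of 2.96 ± 1.13 and 6.5004 ± 1.497. Neurl1b, a ubiquitin ligase that drives endocytosis of Notch ligands, had means of 0.837 ± 0.321 and 1.96 ± 0.493, and Cadm3, an immunoglobulin-type adhesion molecule, 2.77 ± 0.782 and 5.13 ± 0.799. Of Syt12's exonic length 17.2% overlaps a noncoding transcript on the opposite strand.

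The last 2 genes bind DNA or carry a ligand to it, and both were lower after DT-061 as deposited. Their estimates stayed lower with either scaling, but only Bhlhe40 with quantile normalization was past the threshold. Bhlhe40 (chr6:108660629-108666925), a repressor of the basic helix-loop-helix family that responds to hypoxia, the circadian clock and cytokines, was at 6.49, 11.1, 9.61 and 7.62 FPKM after DT-061 and 15.9, 37.7, 20.5 and 30.2 in vehicle. The means were 8.71 ± 2.07 and 26.1 ± 9.79, a 2.99-fold difference, and its log2 change of -1.43 was the largest drop of the 45 on the log2(FPKM + 1) scale. Vehicle 2 was the highest library and Vehicle 4 the next, the reverse of the mitosis genes, for which Vehicle 2 was the lowest vehicle library. Crabp2 (chr3:87948666-87953376), which hands retinoic acid to its nuclear receptor, was at 0.524, 0.618, 0.814 and 0.292 after DT-061 and 1.73, 2.66, 1.54 and 3.42 in vehicle, a 4.16-fold difference. The smallest fragment numbers were 7, 9, 11 and 4 after DT-061 and 26, 55, 25 and 45 in vehicle. Crabp2 was highest in Vehicle 4 and second in Vehicle 2, and DT-061 library 3 was the highest of its group.

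**Figure D5:**
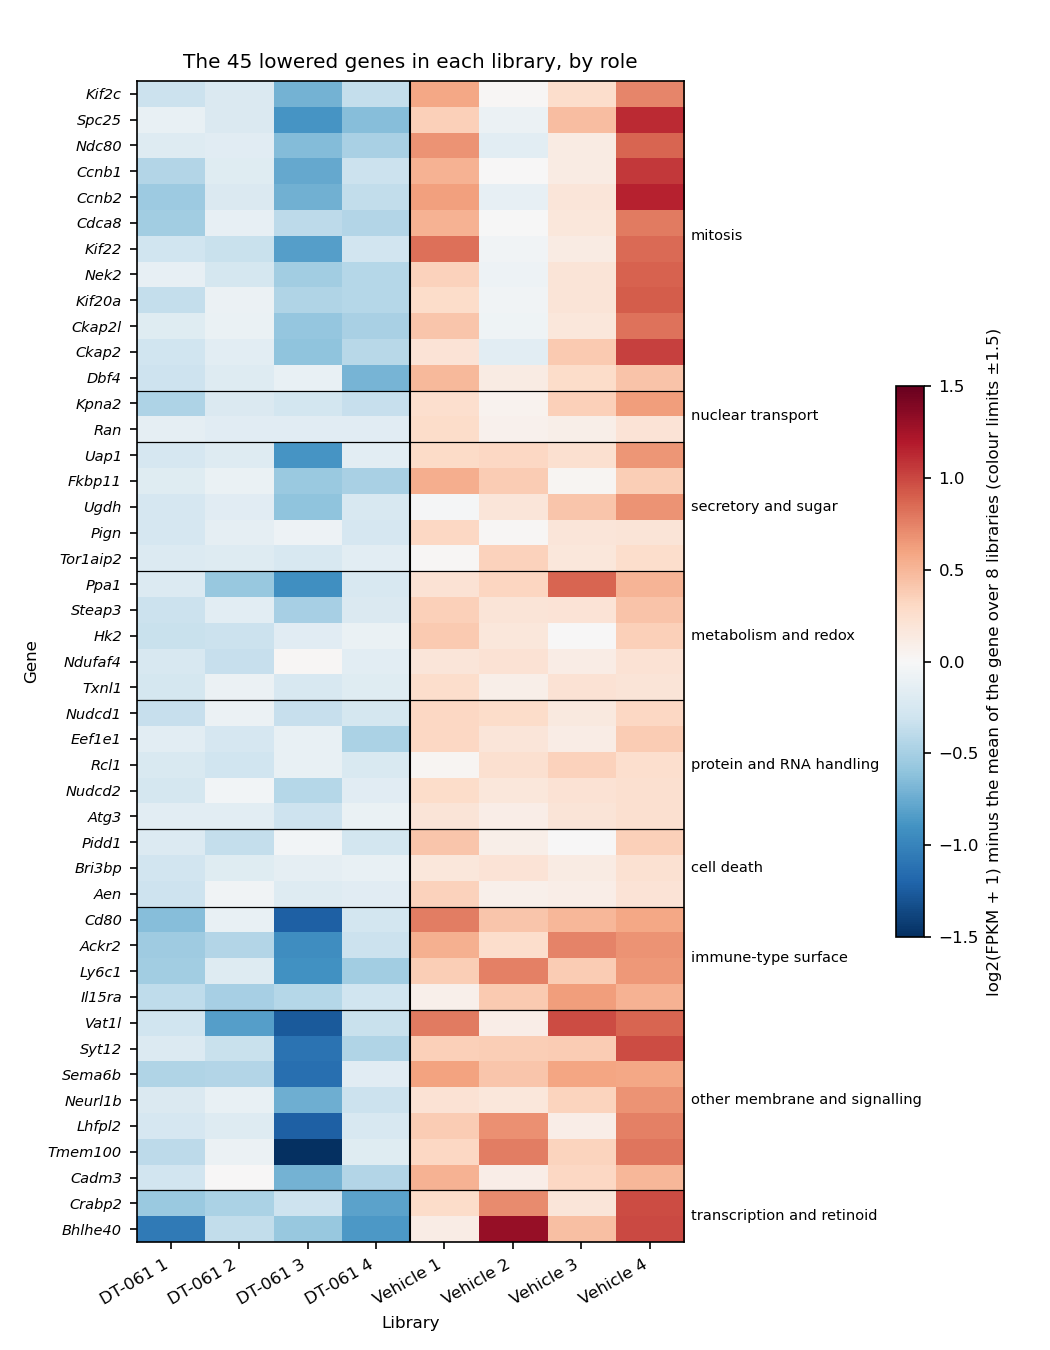
The 45 genes in rows by role and the 8 libraries in columns; colour is log2(FPKM + 1) minus the gene's mean over the 8 libraries, blue to red. Vehicle 4 stands out in the mitosis rows and DT-061 library 3 in the rows of other membrane and signalling genes, all 7 of which are lowest there.

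Across the 45 genes, the DT-061 libraries were not alike. DT-061 library 3 was the lowest of its group in 30 genes, with a median of 0.758 times the mean of the other DT-061 libraries, and library 2 was the highest in 23. Among the 398 lowered genes with Vehicle 4 below the other vehicle libraries, library 3 was the lowest in 313, at a median of 0.596 times the others. In the vehicle group, Vehicle 4 was the highest in 24 of the 45 genes, which the rule favours; of the rest, Vehicle 1 was highest in 12, Vehicle 3 in 5 and Vehicle 2 in 4. Among the 398, Vehicle 1 was the highest in 315 and stood at a median of 1.49 times the mean of the others, against 1.03 times in the 45. Vehicle 4 was at least 1.5 times the mean of the others in 14 of the 45 genes: 11 mitosis genes, Crabp2, Syt12 and Neurl1b. When DT-061 library 3 and Vehicle 4 were both left out, the median log2 change over the 45 was -0.50 in place of -0.69 and 41 were past limma's threshold; that all 45 remain lower without any library follows from the rule.

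No other list of genes accounted for many of the 45. Of 17 pathway lists, 5 held any: the cell cycle list 6 genes, the glycosylation list 2, and the lists of the endoplasmic reticulum (Fkbp11), glycolysis and hypoxia (Hk2), and ribosome biogenesis and MYC targets (Ran, 1 of 3 in the table) 1 each. The 12 lists without a member included those of matrix proteins and proteases, TGF-beta and BMP signalling, actin and adhesion, and inflammation. Nothing is read from these absences, because the 45 are a small part of the 1329 genes and the rule takes lowered genes only. All 4 TGF-beta and BMP genes in the table and 11 of the 15 actin and adhesion genes rose on the deposited scale. The Vehicle 4 condition also selects against genes that follow immune-cell transcripts.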

How the data were processed

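Polyadenylated RNA of 8 ascending aorta samples (4 per group) was read as paired ends. HISAT2 2.0.5, StringTie 1.3.3b and featureCounts 1.5.0-p3 on mm10 are named per the submitters' processing notes; annotation and strand setting are not named there. FPKM values per gene and library were made and deposited by the authors in a table of 1329 genes that its name calls significant, so the share of called genes is high by construction. Depth was recovered from steps between low FPKM values: 14100000 to 22200000 fragments per library, with 90.9% to 100% of the 34 to 62 values used per library whole within 0.03 fragments; PCR duplicates are not known, and small numbers are imprecise.

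Symbols were matched to GENCODE M21 (1328 found, 1216 protein coding). The fit across the table was limma 3.58.1 (R 4.3.3; trend and robust) on log2(FPKM + 1) with all 8 libraries, Benjamini-Hochberg adjusted, threshold 0.05; it was tested on simulated data. The pseudocount of 1 understates changes of low genes. Fragments per gene are the smallest whole numbers that give the values within 0.06, found for 34 of the 45 genes; they are minimum values, since a longer gene length can fit as well. The members and lists were chosen with earlier results of these data known. The rule for named genes selects 21 of the 45; all were named because the set is small. Alternatives were a pseudocount of 0.1, a filter at a mean of 1 FPKM, 2 scalings, limma without trend and robust options, a replicate block, each replicate left out, and, chosen after seeing the data, DT-061 library 3 and Vehicle 4 left out together. P-values measure the spread between these samples.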

Additional observations from a re-analysis of the deposited data

Results flagged for a closer look

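Among 90 sets of 4 libraries for single genes and 14 for marker sums, 10 had a library set apart from the other libraries of its group by Dixon's test for 4 values; chance gives this in about 5 of 100 sets. 5 of them concern DT-061 library 3. It held 0.735 FPKM of Kif22 (others 1.43 to 1.51), 1.27 of Lhfpl2 (3.46 to 3.63) and 19.3 of Uap1 (30.7 to 32.7), its monocyte and macrophage marker sum was 14.0 (62.8 to 72.7), and its chondrocyte marker sum was 273 (144 to 165). 3 concern Vehicle 4, which held 5.44 FPKM of Syt12 (3.19 to 3.26) and 58.4 of Uap1 (43.3 to 45.6), and whose chondrocyte marker sum was 131 (265 to 288). That sum joins 3 genes that did not move together, so it gives no level of such cells. In DT-061 library 3, Cytl1 was at 254 FPKM (97.4 to 117), but Comp at 19.2 (45.3 to 58.6) and Runx2 at 0.384 (0.873 to 1.02). In Vehicle 4, Cytl1 was at 74.6 (50.8 to 68.9), but Comp at 55.7 (197 to 221) and Runx2 at 1.16 (1.66 to 2.08). DT-061 library 1 held 40.4 FPKM of Ran (39.3 to 39.4), and Vehicle 2 held 4.60 of Sema6b (5.32 to 5.41). Uap1 was the only gene of the 45 with a library set apart in both groups.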

How the results depend on the processing

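The scaling decided most. The table holds mainly genes that differ, and scaling over it moved the log2 changes upward, by a median of 0.68 with the median and 0.56 with quantiles, unevenly between genes. Over the whole table, 864 genes fell and 404 rose. Median rescaling gave 301 lower and quantile normalization 209. None of the estimates listed below as turned positive was past the threshold. Of the 45 genes, 1 was past the threshold and lower with median rescaling and 5 with quantile normalization, and their median log2 change of -0.69 became -0.14 and -0.043. It was -1.03 with a pseudocount of 0.1 and -0.50 without DT-061 library 3 and Vehicle 4; the cause was not tested. With 1 replicate left out, the genes that fell ranged from 652 to 881, the genes that rose from 254 (without Vehicle replicate 3) to 351, the members past the threshold from 38 to 43, and the median change from -0.80 to -0.59.

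With median rescaling these log2 changes turned positive: Aen (0.38), Atg3 (0.46), Bri3bp (0.25), Ccng1 (0.038), Ddi2 (0.52), Eef1e1 (0.26), Fkbp11 (0.11), Hk2 (0.31), Hmgb2 (0.077), Kpna2 (0.15), Ndufaf4 (0.32), Nudcd1 (0.085), Nudcd2 (0.32), Pidd1 (0.037), Pign (0.25), Ran (0.51), Rcl1 (0.31), Steap3 (0.19), Tor1aip2 (0.40), Txnl1 (0.43), Uap1 (0.083) and Ugdh (0.19). With quantile normalization these did: Aen (0.25), Bdkrb1 (0.055), Bri3bp (0.52), Cadm3 (0.087), Ccna2 (0.14), Ccnb1 (0.044), Cdca3 (0.11), Cdca8 (0.18), Cdkn2a (0.12), Cenpf (0.17), Ckap2 (0.15), Ckap2l (0.23), Dbf4 (0.26), Ddi2 (0.16), E2f2 (0.0067), Eef1e1 (0.058), Kif11 (0.20), Kif20a (0.22), Kif22 (0.028), Kif2c (0.032), Ndc80 (0.10), Ndufaf4 (0.36), Nek2 (0.20), Neurl1b (0.20), Nkain1 (0.14), Nudcd1 (0.36), Pidd1 (0.44), Pign (0.54) and Rcl1 (0.12).

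The labels do not say whether the replicate numbers pair the samples. The correlations of same-numbered libraries' deviations were 0.18, -0.11, -0.05 and -0.47, and those of differently numbered libraries ran from -0.48 to 0.45. The libraries differ in cell content, so these values cannot settle pairing by litter or batch. With a replicate block, 630 genes fell, 204 rose and 32 of the 45 were past the threshold. Depth limits genes with few fragments: the smallest numbers that fit were 4 to 11 per DT-061 library for Crabp2, from 3 for Vat1l, from 6 for Cd80, and 8 to 70 for the mitosis genes.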

Other observations

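Because Pidd1, Aen and Steap3 are known p53 targets, a short list of p53 targets, written after the values had been seen, was looked up. The list is not complete, so it gives no direction for the p53 targets of the table as a set. It added Ccng1, which was 1.78 times higher in vehicle, with Vehicle 4 below the mean of the other vehicle libraries, and Perp, which was the reverse, with a mean of 46.0 FPKM after DT-061 and 29.1 in vehicle. Of the 5 genes read, Perp alone was higher after DT-061 on the deposited scale. Pmaip1, Dram1 and Apaf1, p53 targets that the list left out, were 4.22, 1.85 and 1.51 times higher in vehicle. With median rescaling the estimates of Ccng1 (0.038), Pidd1 (0.037), Aen (0.38) and Steap3 (0.19) turned higher, none past the threshold.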
